A study of Homo sapiens with 9 samples.

Results

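The DNA replication machinery genes were a list of 43 protein-coding genes, out of 20163 annotated on the chromosomes used here, and their promoters were followed through H3K4me3 CUT&RUN peak lists of HEL cells. The members were chosen by name: the 6 subunits of the MCM2-7 helicase, the origin recognition complex and the other licensing factors, the firing factors, the replicative polymerases and primase, the sliding clamp with its loader, RPA, and the enzymes LIG1 and FEN1. A member counted as marked where a library listed a peak no more than 1 kb from one of its GENCODE starts, and its promoter signal was the largest calibrated signal among those peaks. H3K4me3 is the trimethylation of lysine 4 on histone H3, a mark of active promoters, and CUT&RUN reads it by tethering a nuclease to the bound antibody and sequencing the fragments it cuts free. HEL is an established human erythroleukemia line. The 9 libraries fell into 4 groups, all of HEL cells carrying a CRISPR guide: a non-targeting control guide (NTC, 3 libraries), and knockout (KO) of METTL3, METTL14 or WTAP (2 libraries each), the subunits of the m6A RNA methyltransferase. The comparison asks whether promoter H3K4me3 at these genes depends on that complex. Nothing in the sources used here says whether the KO cells were a clone or a pool, or whether the libraries of a group came from separate cultures, so p-values measure only the spread between these libraries.

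Replication starts in separate stages. In G1 the origin recognition complex (ORC), CDC6 and CDT1 load the MCM2-7 helicase onto DNA, which is called licensing. In S phase the kinase CDC7 with its partner DBF4 fires the loaded helicase, which takes up CDC45 and the GINS complex, and the polymerases, the clamp PCNA and the flap nuclease and ligase then copy both strands. Most of these genes are known targets of the E2F transcription factors and are transcribed as cells enter S phase, and erythroleukemia cells divide continuously.

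The lists held 99358 peaks with hg19 positions and calibrated signals but no fragment totals. Depth is therefore unknown, and precision is limited by how many libraries each group has. Values within a list were whole multiples of a step, taken as the worth of 1 fragment, which was 1.14 to 1.32 in the NTC libraries, 0.461 and 1.07 in METTL3-KO and 0.320 to 0.440 in the METTL14-KO and WTAP-KO libraries. The spike-in calibration therefore differed between the groups compared, and its part in the results was not tested. Every peak was between 150 and 2000 bp wide, and whether wider domains of the mark were dropped, trimmed or split was not tested. Of 10 erythroid and megakaryocytic marker genes 8 were marked in all 3 NTC libraries, against 0 of 5 hepatic and 0 of 4 epithelial markers.

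The promoters below carry the patterns described afterwards. FEN1 was the member with a peak in all 9 libraries, DBF4, LIG1, POLE2 and POLD2 were the members of highest NTC signal without any KO peak, and MCM3 and ORC1, chosen after their values were seen, had the highest KO signal among members without any NTC peak. Each sequence is the 300-base RefSeq promoter (GRCh38.p14, 250 bases before to 50 after the start), placed on hg19 by exact match and written 5′ to 3′ along the gene, with E2F sites (TTTCGCGC, TTTGGCGC, TTTCCCGC or TTTGCCGC, either strand) in capitals.
FEN1 (hg19 chr11:61560133-61560432, plus strand): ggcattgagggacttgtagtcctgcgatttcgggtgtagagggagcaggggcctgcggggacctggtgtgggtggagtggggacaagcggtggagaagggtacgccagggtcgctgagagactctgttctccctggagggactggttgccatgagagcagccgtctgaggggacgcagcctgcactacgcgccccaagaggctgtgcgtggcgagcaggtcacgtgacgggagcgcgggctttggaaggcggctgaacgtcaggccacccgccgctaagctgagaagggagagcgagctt
DBF4 (hg19 chr7:87505558-87505857, plus strand): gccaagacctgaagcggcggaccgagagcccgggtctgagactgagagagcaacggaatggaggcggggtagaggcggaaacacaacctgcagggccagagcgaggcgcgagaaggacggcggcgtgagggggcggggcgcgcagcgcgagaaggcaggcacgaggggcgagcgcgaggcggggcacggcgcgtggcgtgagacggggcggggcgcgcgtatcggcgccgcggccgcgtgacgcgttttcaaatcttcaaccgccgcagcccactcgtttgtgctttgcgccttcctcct
LIG1 (hg19 chr19:48673552-48673851, minus strand): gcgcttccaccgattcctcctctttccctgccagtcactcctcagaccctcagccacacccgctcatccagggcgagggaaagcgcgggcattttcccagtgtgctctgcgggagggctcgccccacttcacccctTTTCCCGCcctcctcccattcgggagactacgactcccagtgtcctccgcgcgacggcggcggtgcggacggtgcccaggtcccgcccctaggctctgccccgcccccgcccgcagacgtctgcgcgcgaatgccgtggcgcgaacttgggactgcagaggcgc
POLE2 (hg19 chr14:50154883-50155182, minus strand): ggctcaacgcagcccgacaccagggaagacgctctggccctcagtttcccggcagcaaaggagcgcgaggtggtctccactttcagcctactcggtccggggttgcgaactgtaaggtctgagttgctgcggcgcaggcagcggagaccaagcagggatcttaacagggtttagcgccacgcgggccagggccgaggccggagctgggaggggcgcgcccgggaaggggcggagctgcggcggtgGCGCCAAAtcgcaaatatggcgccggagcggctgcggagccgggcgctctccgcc
POLD2 (hg19 chr7:44163098-44163397, minus strand): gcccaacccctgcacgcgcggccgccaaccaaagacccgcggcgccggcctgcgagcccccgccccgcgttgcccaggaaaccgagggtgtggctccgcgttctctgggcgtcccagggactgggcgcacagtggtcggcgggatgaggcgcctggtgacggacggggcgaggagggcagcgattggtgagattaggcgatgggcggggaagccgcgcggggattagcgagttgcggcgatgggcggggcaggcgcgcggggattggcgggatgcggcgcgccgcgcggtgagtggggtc
MCM3 (hg19 chr6:52149491-52149790, minus strand): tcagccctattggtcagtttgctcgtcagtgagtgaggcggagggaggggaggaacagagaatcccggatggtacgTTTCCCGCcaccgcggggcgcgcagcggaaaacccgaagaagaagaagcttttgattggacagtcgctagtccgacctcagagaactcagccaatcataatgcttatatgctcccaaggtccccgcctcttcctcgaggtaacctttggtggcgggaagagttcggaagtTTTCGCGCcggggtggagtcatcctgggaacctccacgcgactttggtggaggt
ORC1 (hg19 chr1:52870046-52870345, minus strand): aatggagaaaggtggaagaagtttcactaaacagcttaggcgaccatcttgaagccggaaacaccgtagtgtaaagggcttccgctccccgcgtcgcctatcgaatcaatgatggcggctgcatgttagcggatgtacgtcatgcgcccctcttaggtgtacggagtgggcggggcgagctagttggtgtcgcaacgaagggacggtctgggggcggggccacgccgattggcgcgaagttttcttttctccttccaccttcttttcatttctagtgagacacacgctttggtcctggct
LIG1 and POLE2 held 1 E2F site each, MCM3 held 2, and the other sequences held none. Windows of LIG1, POLE2 and POLD2 overlapped a peak in 3 NTC and 0 KO libraries, that of FEN1 in 3 NTC and 6 KO libraries, and those of MCM3 and ORC1 in 0 NTC libraries and in 5 and 6 KO libraries. The DBF4 window ended at 87505857 and overlapped no peak. Its NTC peaks began just past that end, at 87505866 to 87505941. They lay 0 to 26 bp from an annotated start, though 335 to 410 bp past the annotated gene start.

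RefSeq promoters were matched for 37 of the 43 members, and E2F letters were more frequent in them than in other promoters. An E2F site was found in 17 of 37 (45.9%), against 4.44% of 15842 protein-coding promoters of the same length. TTTCCCGC was the most frequent form, in 9 members, TTTGGCGC was found in 6, TTTCGCGC in 5 and TTTGCCGC in 0. CCAAT, on either strand, was present in 54.1% of members and 36.4% of all promoters, and the GC box GGGCGG in 70.3% and 58.5%. The CHR element TTTGAA was found in 1 member, DBF4 (2.70%, against 12.1% of all promoters). The median number of CpG dinucleotides was 30 in members and 22 in all promoters. E2F sites were present in 6 of 12 matched members that lost every KO peak, in 3 of 8 that kept a KO peak and in 2 of 8 without an NTC peak. A match describes these letters only, and was not tested against the mark.

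In NTC cells most replication genes were marked, and the number fell from NTC through METTL3-KO to METTL14-KO and WTAP-KO. The NTC libraries marked 29, 32 and 29 of the 43 members, which is 67.4% to 74.4%, while all protein-coding genes were marked at 46.8% to 47.9%. The METTL3-KO libraries marked 25 and 23 members, the METTL14-KO libraries 15 and 9, and the WTAP-KO libraries 8 and 10. Every KO library marked fewer members than every NTC library. The share of members was above that of all genes in each of the 9 libraries, for which the KO values were 33.5% to 34.6%, 13.2% to 21.1% and 11.4% to 12.9% in the same order. In bulk libraries, fewer cells with the mark and less mark per cell cannot be told apart.

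**Figure D1:**
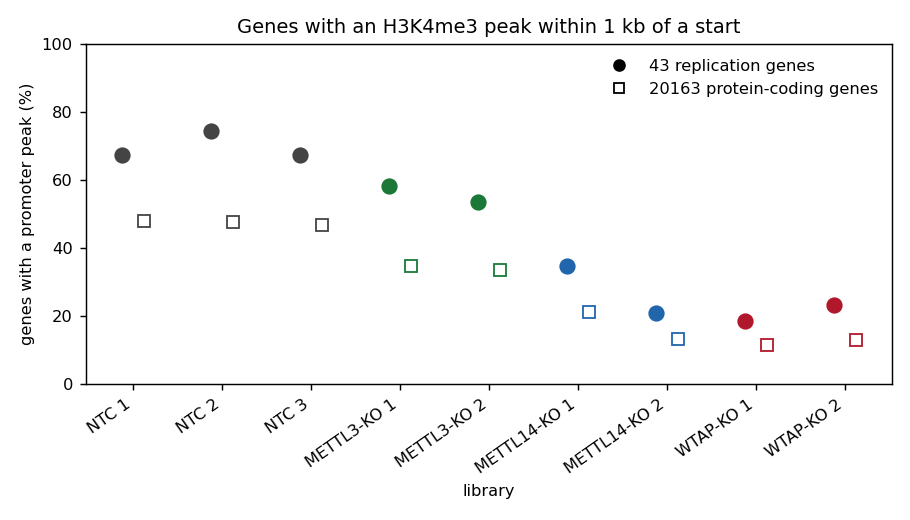
Share of genes with an H3K4me3 peak within 1 kb of a start (percent, y axis) in each of the 9 libraries (x axis), for the 43 replication genes (filled circles) and all 20163 protein-coding genes (open squares). Members stand at 67.4% to 74.4% in NTC and at 18.6% to 23.3% in WTAP-KO, above all genes in every library.

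Marking was not uniform among the members. All 3 NTC libraries marked 24 members, 2 of 3 marked 7 (GINS2, MCM10, MCM4, ORC5, POLA2, POLE and PRIM2), 1 of 3 marked 4 (PCNA, POLA1, RFC3 and RPA3), and none marked 8 (CDC7, GMNN, MCM3, ORC1, ORC2, ORC3, ORC4 and ORC6), all of which had a peak in at least 1 KO library. The median NTC signal of the 24 was 5974, from 587 for MCM6 to 18940 for RFC4, against 5148 over the 8495 genes marked in all 3 NTC libraries. A divergent protein-coding neighbour started within 1 kb of 18 members, such as TPRA1 at MCM2, PRPF38A at ORC1, RARS2 at ORC3 and SLC25A40 at DBF4. A peak near such a gene start may serve both genes.

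**Figure D2:**
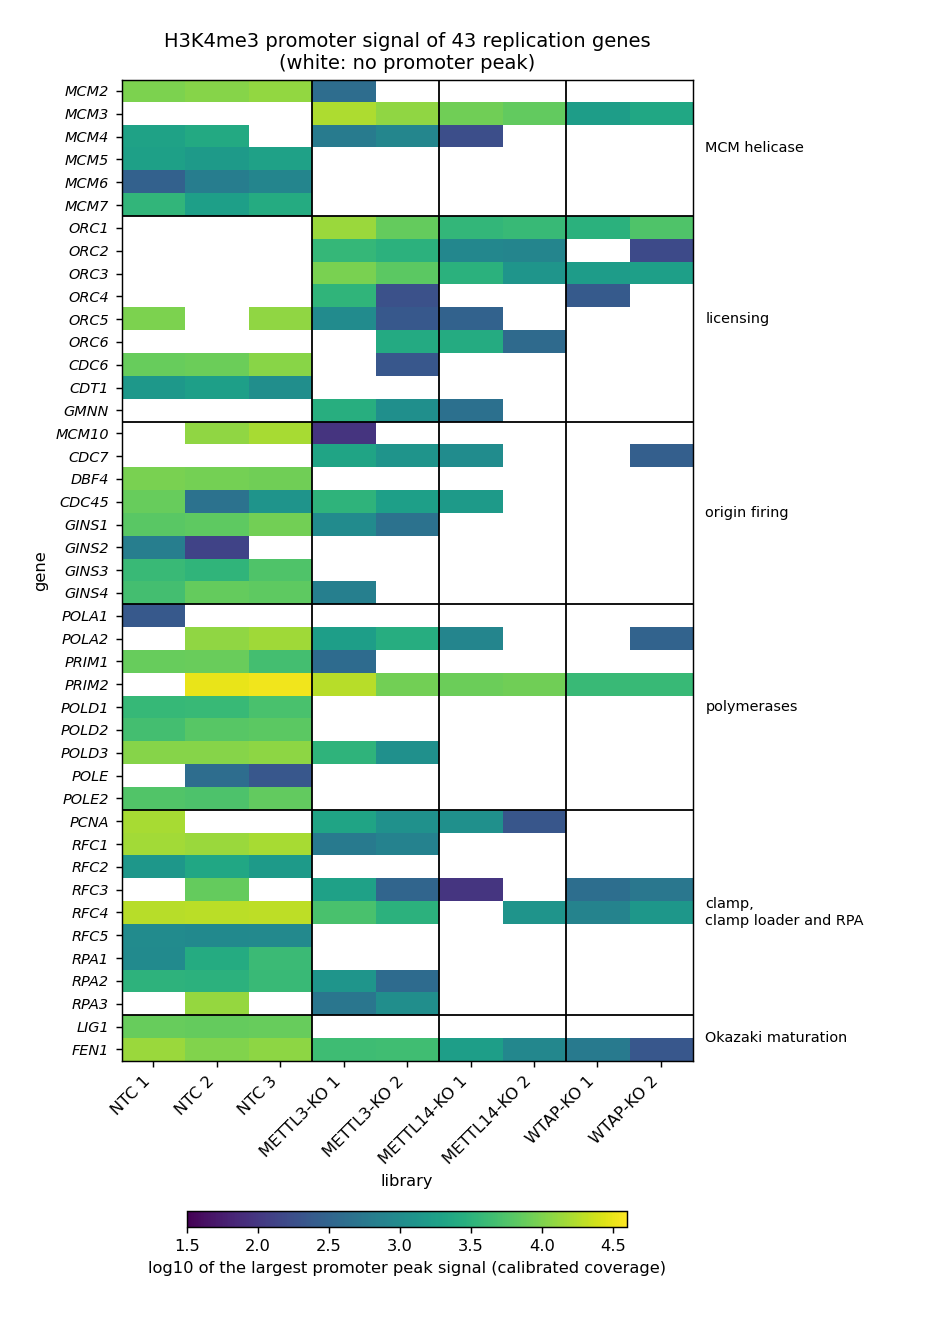
Promoter signal of the 43 members (rows, grouped by role) in the 9 libraries (columns), as the log10 of the largest promoter peak signal, with white for no peak. Rows such as LIG1 are filled in NTC only, FEN1 is filled in all 9 libraries, and MCM3, ORC1 and ORC3 are filled in the 6 KO libraries and white in NTC.

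Among the 24 members with a peak in every NTC library, 13 were unmarked in both METTL3-KO libraries, beside 46.3% of all genes marked in all 3 NTC libraries. That is 54.2% of the members, and genes of equal NTC signal, weighted by decile, gave 45.2%. In METTL14-KO 21 members (87.5%) had none, beside 73.3% of all such genes and 73.1% at equal signal, and in WTAP-KO 22 (91.7%), beside 84.9% and 85.4%. No KO library of any group had a peak at 13 members (54.2%), beside 45.8% of all such genes and 44.8% at equal signal. At equal signal, 10.9, 17.5 and 20.5 members would have lacked a peak after loss of METTL3, METTL14 and WTAP, against 13, 21 and 22 counted, a description on which no test was run.

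**Figure D3:**
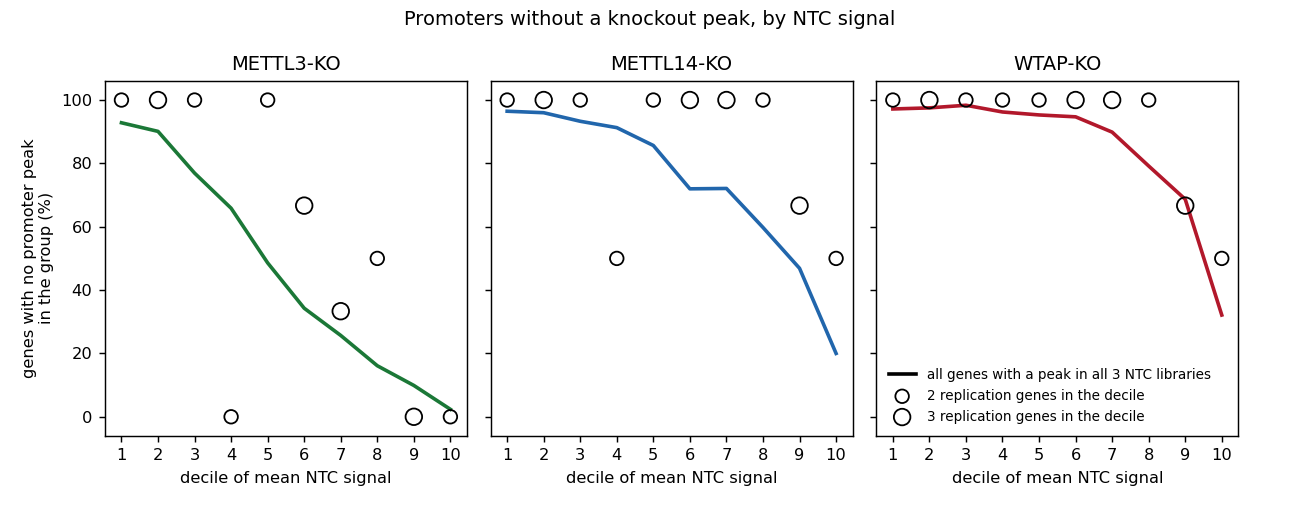
Percent of genes with no promoter peak in either library of METTL3-KO, METTL14-KO or WTAP-KO (y axis), by decile of mean NTC signal (x axis), over the 8495 genes marked in all 3 NTC libraries (lines) and over the 2 or 3 members in each decile (circles, area by their number). For METTL3-KO the line goes from 92.8% in decile 1 to 2.35% in decile 10, and the members lie above it in 7 deciles and below it in 3.

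The helicase genes showed the patterns side by side. MCM5, MCM6 and MCM7 had a peak in each NTC library but none after any knockout, and MCM2, the subunit of highest NTC signal, kept 1 KO peak. MCM2 had a signal of 9732, 10810 and 12397 in NTC and of 404 in METTL3-KO replicate 1, and no peak in the other 5 KO libraries. The one KO value lay far below all 3 NTC values, and the mean of the KO groups was lower than NTC (adjusted p = 9.37e-05, limma). Missing entries counted as 0 in this and the later tests, so such p-values rest partly on the pseudocount, the constant added before the log. A gene was tested only with a promoter peak in at least 2 libraries. Members with 1 KO peak, such as MCM2, CDC6 and MCM10, met this only through NTC, so their p-values are no separate support for a lower signal. MCM4 had a peak in 2 NTC libraries (1919 and 2443), both METTL3-KO libraries (611 and 835) and METTL14-KO replicate 1 (178), and did not pass the test (adjusted p = 0.237, limma). Its NTC peaks began 1279 and 1306 bp past the gene start, and no KO peak reached beyond 929 bp. The MCM4 values in NTC and KO therefore come from separate sites, and PRKDC is a divergent neighbour there. MCM3 went the other way. Its signal was 16360 and 12313 in METTL3-KO, 8478 and 7160 in METTL14-KO and 1671 and 2191 in WTAP-KO, and it was listed at 0, with no peak, in all 3 NTC libraries. Each KO library listed a peak and no NTC library did. Since a missing entry has no measured level, no fold or p against NTC is given for this or any other member without an NTC peak.

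Of the 6 ORC subunits, which mark origins for helicase loading, 5 had KO peaks and no NTC peak, beside 15.3% of the 12478 genes marked in any library, and ORC5 had NTC peaks in 2 libraries. No test was run on the complex. ORC1, ORC3, ORC4 and ORC6 each had a divergent neighbour within 1 kb (PRPF38A, RARS2, MBD5 and VPS35), so peaks there may serve both genes. ORC1 had a signal of 13702 and 7317 in METTL3-KO, 3602 and 3884 in METTL14-KO and 2995 and 5547 in WTAP-KO. ORC3 had 9569 and 6516, 3030 and 1325, and 1620 and 1756 in the same order. Both were listed at 0 in NTC, and every KO library held a peak. ORC2 had 3681 and 3112 in METTL3-KO, 861 and 810 in METTL14-KO, and 158 in WTAP-KO replicate 2 only. ORC6 had peaks in METTL3-KO replicate 2 (2488) and in both METTL14-KO libraries (2559 and 371). ORC4 had 3364 and 184 in METTL3-KO and 238 in WTAP-KO replicate 1. The factors that bring the helicase to ORC had NTC peaks. CDC6, the loading ATPase, had 7602, 7949 and 11128 in NTC and 218 in METTL3-KO replicate 2 as its only KO value (adjusted p = 3.32e-05, limma). CDT1, which escorts the helicase, had 1090 to 1767 in NTC and no KO peak, and its inhibitor GMNN (geminin) had peaks in both METTL3-KO libraries (2748 and 1113) and METTL14-KO replicate 1 (437) and none in NTC.

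Most firing genes had fewer peaks or none after knockout. CDC45 kept peaks in both METTL3-KO libraries and in METTL14-KO replicate 1, and CDC7 had KO peaks and no NTC peak. DBF4, the activator of the CDC7 kinase, had a signal of 9589, 8849 and 8502 in NTC and no peak in any KO library. GINS3 had 3964, 3351 and 5588 in NTC and likewise no KO peak, its NTC peaks beginning 97256 to 97715 bp past the gene start, at another annotated start. MCM10, which helps start the fork, had 12251 and 15803 in NTC replicates 2 and 3, no peak in NTC replicate 1, and 94 in METTL3-KO replicate 1 alone (adjusted p = 0.0429, limma). CDC45, the helicase activator that joins GINS, had 7489, 465 and 1271 in NTC, 3309 and 1767 in METTL3-KO and 1558 in METTL14-KO replicate 1, so that the METTL3-KO values lay inside the NTC range (82.5% of the NTC mean), and the KO mean did not differ from NTC by the test (adjusted p = 0.112, limma), although WTAP-KO, listed at 0, was called lower (adjusted p = 0.0251, limma). Without METTL14-KO replicate 1 the KO mean was called lower (adjusted p = 0.0142, limma). The CDC45 peaks also moved: in NTC replicates 2 and 3 they began 813 bp past the gene start, while NTC replicate 1 and the KO peaks covered the start. CDC7, the kinase itself, was listed at 0 in NTC and had 2059 and 1285 in METTL3-KO, 1031 in METTL14-KO replicate 1 and 274 in WTAP-KO replicate 2.

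Polymerase genes without KO peaks included POLD1 and POLD2, subunits of the lagging-strand polymerase delta, and POLE2 of the leading-strand polymerase epsilon. Their NTC signals were 3750, 3877 and 5179 for POLD1. For POLD2 they were 4759, 6155 and 6507. For POLE2 they were 5794, 5425 and 7204. All 3 were listed at 0 in the 6 KO libraries. POLD3, a further subunit of polymerase delta, had 10911, 10753 and 11756 in NTC and kept 3262 and 1139 in METTL3-KO, 19.8% of the NTC mean, with no peak in METTL14-KO or WTAP-KO. These POLD3 peaks began 98184 bp or more past the gene start, at another annotated start, and the NTC peaks over the gene start itself (7174 to 8426) had no KO counterpart. The divergent gene LIPT2 starts within 1 kb of the POLD3 gene start, so the peaks there may serve both genes. PRIM2, the large primase subunit, had the highest signal of the list, 31095 and 34177 in NTC replicates 2 and 3 with no peak in NTC replicate 1. It kept 18468 and 8653 in METTL3-KO, 8078 and 8513 in METTL14-KO, and 4022 and 3912 in WTAP-KO. Each KO library was below the NTC libraries that had a peak, and with the 0 of NTC replicate 1 the test did not call it (adjusted p = 0.638, limma). The NTC peaks there were 1936 and 1992 bp wide, against the 2000 bp limit, and the peaks lay 1500 bp or more past the gene start, at a start inside the gene. RefSeq also lists a PRIM2 pseudogene, PRIM2BP, with which reads could be shared, so the PRIM2 values are uncertain. POLA2, of the polymerase alpha that lays primers, had 12004 and 14484 in NTC replicates 2 and 3, and 307 to 2682 in the 4 KO libraries with a peak.

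The clamp loader opens PCNA and sets it on DNA, and RPA coats the single strand. RFC4, the member of highest signal among those marked in all NTC libraries, had 18723, 18776 and 19322 in NTC, 5099 and 3080 in METTL3-KO, 1271 in METTL14-KO replicate 2, and 768 and 1396 in WTAP-KO. All KO values lay below the NTC values, at 21.6% of the NTC mean in METTL3-KO and 5.71% in WTAP-KO (log2 change of the KO mean on the log2(signal + 30.1) scale -4.33, SE 1.13, adjusted p = 0.0104, limma). Dividing each signal by its step ended that call (log2 change -3.20, adjusted p = 0.0836, limma), as did centring on genes marked in all 9 libraries (log2 change -1.49, adjusted p = 0.297, limma). RFC1, chosen after its values were seen, had 14834, 13515 and 15507 in NTC and 582 and 751 in METTL3-KO, 4.56% of the NTC mean, and no peak in the other KO groups. RFC2, RFC5 and RPA1 had no KO peak, and RPA2 kept 1304 and 389 in METTL3-KO against 3081 to 4000 in NTC. PCNA, also chosen after its values were seen, had a peak in NTC replicate 1 (15687, 1970 bp wide), in both METTL3-KO libraries (2060 and 1184) and in both METTL14-KO libraries (1140 and 211), and none in the other NTC or WTAP-KO libraries. The NTC peak covered the gene start, while the largest METTL3-KO peaks lay 6111 to 6736 bp past it, at another annotated start, in replicate 1 and 829 bp or more before it in replicate 2. Smaller METTL3-KO peaks also lay near the gene start, at 38 to 280 bp in replicate 1 (1173) and 70 to 297 bp in replicate 2 (604). The largest METTL14-KO peaks lay there too, at -1 to 299 and 71 to 272 bp. PCNA did not pass the test (adjusted p = 0.909, limma).

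The enzymes that finish Okazaki fragments went separate ways. LIG1, the ligase that seals them, had 7636, 7316 and 7503 in NTC and no KO peak. FEN1, the flap nuclease, had 13432, 10239 and 11845 in NTC, 4392 and 4429 in METTL3-KO, 1738 and 858 in METTL14-KO, and 602 and 219 in WTAP-KO. No KO library reached an NTC value, and the KO groups did not overlap each other. The means were 37.3%, 11.0% and 3.47% of NTC, with log2 changes of -1.41 (SE 0.50, adjusted p = 0.0385, limma) for METTL3-KO, -3.24 (SE 0.50, adjusted p = 0.000927, limma) for METTL14-KO and -4.89 (SE 0.50, adjusted p = 0.000108, limma) for WTAP-KO. Over all KO libraries FEN1 stood at 17.2% of NTC, and the median of 665 genes with a peak in all 9 libraries was 16.8%. Divided by the step of each library these values were 38.4% and 42.3%. The FEN1 peaks were also narrower, 1463 to 1527 bp in NTC, 1128 and 1170 bp in METTL3-KO, 555 and 821 bp in METTL14-KO and 362 and 440 bp in WTAP-KO. The divergent gene TMEM258 starts within 1 kb of FEN1, so these peaks may serve both genes. In METTL14-KO replicate 2 and WTAP-KO replicate 2 the peak lay wholly before the FEN1 gene start (-563 to -9 and -598 to -237 bp). Which gene the kept peaks belong to was not tested.

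**Figure D4:**
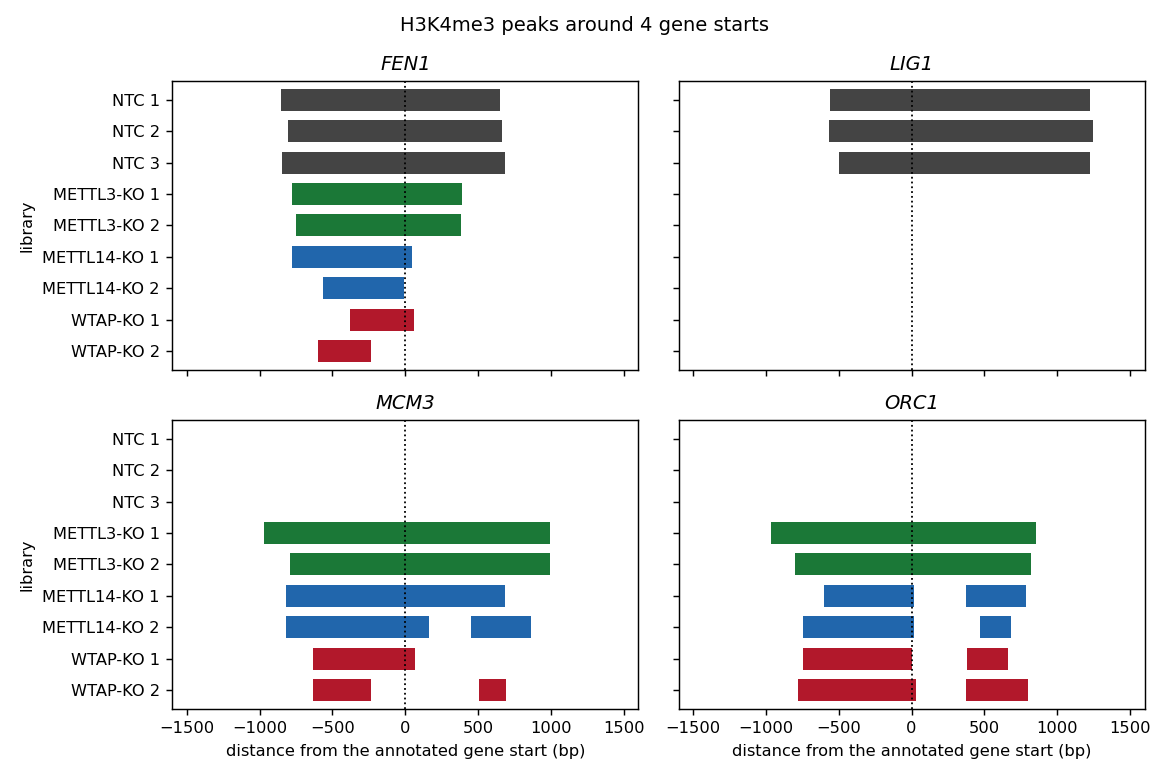
Peaks (bars) within reach of 4 gene starts, by distance from the annotated start along the gene (bp, x axis) in each library (y axis). FEN1 peaks are shorter in each KO group than in NTC, LIG1 has bars in NTC only, and MCM3 and ORC1 have bars in the 6 KO libraries only, widest in METTL3-KO (MCM3 1962 and 1781 bp, ORC1 1820 and 1619 bp).

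Peak width moved with which genes were listed in NTC. For 7 members with no NTC peak and a peak in both METTL3-KO libraries, the median METTL3-KO width was 981 bp, against 750.5 bp for the 7 members marked in all NTC and both METTL3-KO libraries, and over all genes the same medians were 883.5 and 489.25 bp. MCM3 peaks were 1962 and 1781 bp wide in METTL3-KO, 1507 and 978 bp in METTL14-KO and 702 and 397 bp in WTAP-KO. The median NTC width was 1309 bp for members marked in all 3 NTC libraries, 1731.5 bp for those marked in 2 and 1776.5 bp for those marked in 1 (1095, 1214.5 and 1215.5 bp over all genes). Members marked in some NTC libraries but not others had both wide and narrow NTC peaks. Those of MCM10 (1980 and 1944 bp), ORC5 (1924 and 1829 bp), POLA2 (1927 and 1634 bp), PRIM2 (1936 and 1992 bp), PCNA (1970 bp), RPA3 (1898 bp) and RFC3 (1655 bp) were wide, and those of GINS2 (438 and 206 bp), MCM4 (604 and 470 bp), POLE (324 and 310 bp) and POLA1 (151 bp) were narrow. Among the 8 members without an NTC peak, 7 had none within 3 kb in any NTC library either, and MCM3 had a peak of 782 in NTC replicate 3. The part of the width limit in the missing NTC peaks was not tested, and a missing entry at these genes is not a measured absence of the mark.

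**Figure D5:**
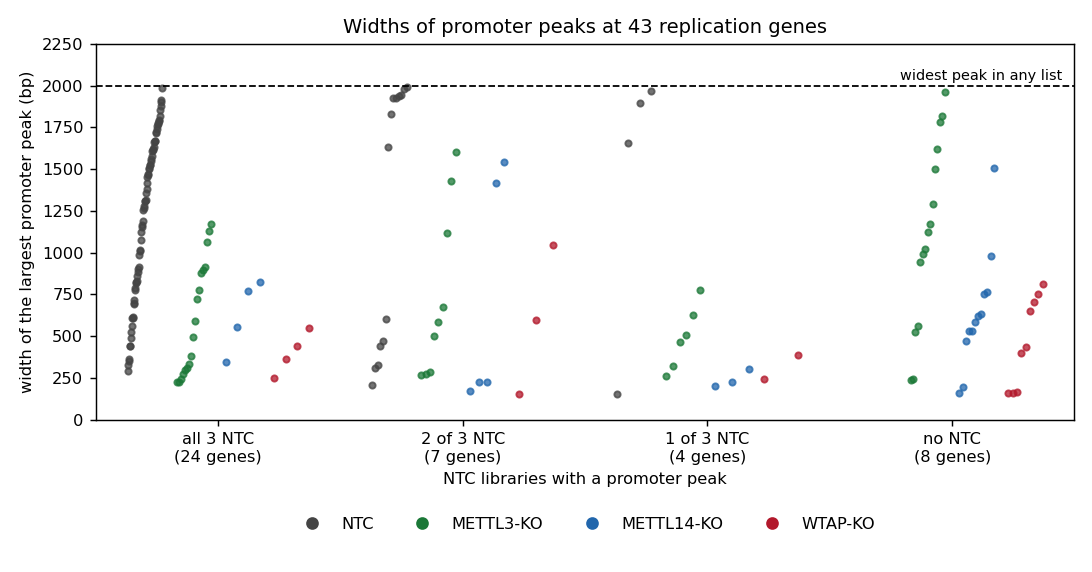
Width of the largest promoter peak (bp, y axis) of each member in each library with a peak (points, coloured by group), for members marked in all 3, 2, 1 or no NTC libraries (x axis). The dashed line is the widest peak in any list, 2000 bp, and the widest METTL3-KO peaks of members without an NTC peak reach 1962 bp.

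Across all genes, signal was compared with limma on log2(signal + 30.1) over 12037 genes with a promoter peak in at least 2 libraries, of which 42 were members (POLA1, with 1 peak, was not tested). In METTL3-KO 22 members were called lower at an adjusted p of 0.05, beside 60.9% of all genes tested, and 7 higher, beside 14.0%. In METTL14-KO 23 were lower (68.8% of all genes) and 5 higher (8.38%), and in WTAP-KO 24 were lower (69.7%) and 3 higher (6.81%). In the average over KO groups 25 were lower (73.0%) and 6 were higher (14.3%). As shares of the 42, the members called lower were 52.4%, 54.8%, 57.1% and 59.5% in the same order, below the background share each time, and the members called higher were 16.7%, 11.9%, 7.14% and 14.3%. The median log2 change of members for the mean of the KO groups was -4.67, and that of all genes -5.30. The 6 higher in the KO mean were CDC7, GMNN, MCM3, ORC1, ORC2 and ORC3, none of which had an NTC peak, and 8 of 43 members had a KO peak and no NTC peak, beside 15.3% of the 12478 genes marked in any library. Members without an NTC peak entered the fit through the KO libraries alone, and members without a KO peak through NTC alone, so their direction was fixed by the filter and these counts are a description. Members with 1 KO peak also passed the filter only through NTC, so their lower calls are a description as well. A gene without a peak counts as 0, so the size of its change is set by the pseudocount.

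METTL3-KO was also set against the other KO groups, with calls that depended on the scaling. METTL3-KO exceeded the average of the other KO groups at 9 members (FEN1, GINS1, GMNN, MCM3, ORC2, ORC3, POLD3, RFC1 and RPA2), by limma at an adjusted p under 0.05, which is 21.4% of the members tested, beside 29.5% of all genes called higher. FEN1, ORC3 and MCM3 had peaks in all 6 KO libraries, with log2 differences of 2.65 (SE 0.47, adjusted p = 0.00702, limma), 2.08 (SE 0.41, adjusted p = 0.0111, limma) and 1.87 (SE 0.31, adjusted p = 0.00552, limma). GINS1, POLD3, RFC1 and RPA2 had peaks in both METTL3-KO libraries and were listed at 0 in all METTL14-KO and WTAP-KO libraries. Those of GINS1 and POLD3 lay at a start other than the gene start. GMNN passed the filter of 2 libraries only through METTL3-KO, so its call here is a description. CDC45 and GMNN followed POLD3 in the size of the difference on the log2(signal + 30.1) scale, and CDC45 did not pass the test (adjusted p = 0.0851, limma). FEN1, MCM3 and ORC3 lost the call (adjusted p = 0.0846, 0.365 and 0.305, limma) when signals were divided by the step. The count moved with the scale as well: on step-divided signals 4 members were higher, and with libraries centred on genes marked in all 9 libraries 6 were higher and 12 lower. Centring also shifts entries listed at 0, by unlike amounts in different libraries. A lower call there can therefore come from members without any KO peak and need not be a measured difference.

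Genes that work beside the replication machinery were taken from lists chosen with earlier results of these data known, and their counts of calls in the mean of the KO groups stand beside 73.0% of all genes tested called lower and 14.3% called higher. Of 29 fork and origin partners, 18 were lower and 8 higher, and nothing particular to this or the following lists is read from such counts. MCMBP, which handles free MCM subunits, had a mean NTC signal of 6303 and no KO peak, as had the fork and timing factor RIF1 at 3177. MTBP, a firing factor, had peaks in all 6 KO libraries (mean 2968) and no NTC peak, and the topoisomerase TOP2A had 20912 and 26875 in NTC replicates 2 and 3 and a mean of 2919 over 6 KO libraries. Of 9 genes of nucleotide supply, 8 were tested, 5 were lower and 0 higher. RRM1, a subunit of ribonucleotide reductase, had 7530 in NTC and no KO peak, while its partner RRM2 had no NTC peak and 3 KO peaks (mean over KO libraries 315). DTYMK, the thymidylate kinase, had 2335 in NTC and no KO peak, and DUT, the dUTPase, kept a peak in all 6 KO libraries (mean 1797, with 12759 and 7765 in the 2 NTC libraries with a peak). Of 9 chromatin assembly genes, 5 were lower and 2 higher. CHAF1A and SSRP1, histone chaperone subunits, had 5136 and 3070 in NTC and no KO peak, the chaperone NASP had 4 KO peaks and no NTC peak, and ASF1A shared its KO peaks with MCM9. Of 18 E2F and RB family genes, 17 were tested, 13 were lower and 3 higher. LIN9, of the complex that represses and activates cell cycle genes, had 6347 in NTC and no KO peak, and RBL1 had 12690 and 12811 in 2 NTC libraries and no KO peak. TFDP2, the dimerization partner of E2F, had peaks in all 6 KO libraries (mean 5822) and none in NTC. LIN37 kept peaks in METTL3-KO and METTL14-KO (means 2417 and 2034) below its NTC mean of 9858.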

How the data were processed

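H3K4me3 CUT&RUN libraries of HEL cells were grouped by the sample labels. The authors aligned paired ends with Bowtie to hg19 and to the yeast spike-in genome (sacCer3), calibrated by the spike-in, removed duplicates with Picard and called peaks in each library; versions are not given in the sources used here. The authors deposited 1 headerless list per library, in which each peak has coordinates and a spike-in scaled coverage signal. These are not counts, so no count model was used. Starts were taken to count from 0, an assumption, and are printed from 1. Depth is unknown.

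Peaks were assigned to GENCODE 44 genes on hg19. Signals were compared with limma 3.58.1 (R 4.3.3; trend, Benjamini-Hochberg at 0.05) on log2(signal + 30.1), where 30.1 is the lowest promoter value in any library, with 9 libraries and 4 groups in 1 model. The fit was run on simulated data with normal errors and no missing entries, which cannot test it on entries listed at 0. Shares at equal signal used deciles of mean NTC signal. The step of a library was the largest unit of which at least 95% of its values up to 100 times the lowest were whole multiples within 0.05 step.

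The members and lists were chosen with earlier results of these data known. Members were named with values by rule: the highest NTC signal in each role, peaks in all 9 libraries, NTC peaks with no KO peak (6 of highest NTC signal), the 3 largest differences of METTL3-KO from the other KO groups, members without a peak in an NTC library (5 of highest mean signal), and members higher in a KO group (at most 5); of other lists, 2 of highest KO signal and 2 of highest NTC signal without KO peak. Others were chosen after their values were seen. A further list of cell type markers was examined and is not reported here. Alternatives were the pseudocount (0.1 and 10 times), the gene filter, centring, division by the step, the sum of peaks, a 3 kb window, the gene start alone, a peak threshold at the median NTC peak signal (2095), the groups in the fit, a replicate block and leaving out each library. Python 3.11.15, pandas 2.3.3, numpy 2.4.6 and matplotlib 3.10.9 were used.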

Additional observations from a re-analysis of the deposited data

Results flagged for a closer look

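METTL3-KO differed from the other KO groups under the same contrast. The contrast between KO groups (limma, adjusted p under 0.05) called 9 members higher in METTL3-KO than in the average of the others, beside 29.5% of all genes. Where all 6 KO libraries had a peak, the log2 difference was 2.65 for FEN1, 1.87 for MCM3 and 2.08 for ORC3. Elsewhere a KO library was listed at 0 and no size is given: the adjusted p (limma) was 0.000139 for GINS1, 0.0143 for GMNN, 0.00716 for ORC2, 0.00012 for POLD3, 4.27e-05 for RFC1 and 0.000435 for RPA2. GINS1, POLD3, RFC1 and RPA2 were listed at 0 in every METTL14-KO and WTAP-KO library, so those groups held no measured spread. Their p-values rest on entries set to the pseudocount, as those of GMNN and ORC2 do in part. GMNN had no NTC peak and 1 METTL14-KO peak, so it passed the filter of 2 libraries only through METTL3-KO, where it was called higher. Its p-value is therefore no separate support. METTL3-KO replicate 1 had a step of 0.461, near those of METTL14-KO and WTAP-KO (0.320 to 0.440), and METTL3-KO replicate 2 one of 1.07, near those of NTC (1.14 to 1.32), and the part of the calibration was not tested. Groups of 2 or 3 libraries are too small for a test of a single deviating library.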

How the results depend on the processing

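For 21 results the alternatives gave 305 values. Of these 270 stayed within 1.5 times the count or within the spread between libraries and 35 moved further. With genes marked in all 9 libraries FEN1 was the 1 member tested, so each contrast with NTC called 1 lower and 0 higher, and METTL3-KO against the other KO groups 1 higher. With a peak required in all 3 NTC libraries, chosen after seeing the data, 0 members were higher than NTC in any contrast, as that filter leaves out members without an NTC peak, and 5 were higher in METTL3-KO than in the other KO groups. With weaker peaks dropped (below 2095) 4, 2 and 1 members were higher after loss of METTL3, METTL14 and WTAP, and libraries marked 22 (NTC), 10, 4 and 2.5 members on average, against 30, 24, 12 and 9. The gene start alone gave 25.7 in NTC and 19.5 in METTL3-KO. Centring gave 7 members higher in WTAP-KO and, for METTL3-KO against the other KO groups, 12 lower, 6 higher and a change at ORC1 of -0.24 (adjusted p = 0.671, limma) in place of 1.35. It turned the KO mean at CDC45 from -2.74 to 0.10 (adjusted p = 0.946, limma), and the FEN1 change became -0.34 (adjusted p = 0.496, limma). Centring shifts entries listed at 0 as well, so the calls it added need not be measured differences. Fitting the compared groups alone gave 14 higher in METTL3-KO than in the other KO groups, and division by the step gave 4. It also moved the median signal of members from 21.6%, 11.0% and 4.59% of NTC (7, 1 and 2 members) to 46.0%, 31.7% and 16.0%.

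Leaving out each library gave 21 to 24 lower and 6 to 9 higher in METTL3-KO, 23 to 27 and 4 to 7 in METTL14-KO, 22 to 26 and 3 to 4 in WTAP-KO, 23 to 27 and 4 to 6 for the KO mean, and 0 lower and 8 to 14 higher for METTL3-KO against the other KO groups, the 14 without METTL3-KO replicate 2 (ORC1 among them, adjusted p = 0.0220, limma). GMNN, ORC2 and ORC3 lost that call without METTL3-KO replicate 1 (adjusted p = 0.123, 0.0537 and 0.0502, limma). Members without a peak numbered 13 to 16, 21 to 23 and 22 to 24 in the KO groups and 13 to 16 over all. Libraries marked 29 to 30.5, 23 to 25, 9 to 15 and 8 to 10 members. Median signals were 10.8% to 24.4%, 6.98% to 32.7% (the highest without METTL14-KO replicate 2, and 18.6% without NTC replicate 1) and 4.47% to 5.68% of NTC. Same-numbered libraries did not deviate together (mean correlation of deviations 0.0059 over 12 pairs, -0.058 to 0.095), and the replicate block gave 23 lower and 6 higher, 25 and 4, and 25 and 3 in the KO groups, 25 and 4 for their mean, and 0 and 10 for METTL3-KO against the others. The cause of these shifts was not tested.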
